A study of Mus musculus with 35 samples.

Results

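The genes described here are the 10 that encode the NF-kB subunits and their closest inhibitors, chosen by name from the 48709 genes counted in each library. They are the subunits Nfkb1, Nfkb2, Rel, Rela and Relb, the I-kappa-B proteins Nfkbia, Nfkbib, Nfkbie and Nfkbiz, and the ubiquitin-editing enzyme Tnfaip3 (A20). All 10 are protein-coding and passed the filter on low counts. On GRCm38 (GENCODE M21) they lie at chr3:135584655-135691547 (Nfkb1), chr19:46304320-46312385 (Nfkb2), chr11:23736847-23770970 (Rel), chr19:5637483-5648130 (Rela), chr7:19606217-19629438 (Relb), chr12:55489410-55492647 (Nfkbia), chr7:28758251-28767512 (Nfkbib), chr17:45555703-45563169 (Nfkbie), chr16:55811375-55838899 (Nfkbiz) and chr10:19000910-19015657 (Tnfaip3). RNA was sequenced from OT-I cytotoxic T lymphocytes (CTLs), which are CD8+ T cells of mice that carry a transgenic T-cell receptor against ovalbumin. The cells had been primed through CD3 and CD28 and grown on in IL-2 before the experiment, a history that all groups share. One group was taken at 0 h, and the others after 24 h at pH 7.4, pH 7 or pH 6.6, either without IL-2 or with 200 IU/mL of murine IL-2, in medium that had been acidified with HCl. Each of the 7 groups held 5 biological replicates, for 35 libraries, and dead cells were removed before extraction.

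NF-kB dimers wait in the cytoplasm, held by I-kappa-B proteins, until the IKK kinases mark the inhibitor for degradation. The freed dimers then enter the nucleus and bind kB elements, and among the genes they switch on are those of their own inhibitors, which gives the pathway its negative feedback. In T cells the canonical arm (Nfkb1, Rela, Rel) follows the T-cell receptor, CD28 and TNF-family receptors, whereas the non-canonical arm (Nfkb2, Relb) follows a smaller set of TNF-family receptors through the kinase NIK. IL-2 signals mainly through JAK and STAT5 and is not counted among the classical NF-kB inducers. The counts are of mRNA, so they carry no measure of I-kappa-B degradation or of nuclear entry.

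Total counts on genes were 16721319 to 34033340 per library with a median of 24730020, and the shallowest library was pH 6.6 + IL-2 replicate 1. The smallest count of any of the 10 genes in any library was 362. The counting error, averaged over the libraries of a group, was 0.663% to 4.96% of a level. For Relb at pH 7 + IL-2 it was 3.61%, beside a CV between replicates of 3.84%, and for Nfkbie at pH 7.4 it was 3.24%, beside 3.88%. The 8 CD8+ T-cell markers examined had mean levels of at least 1 CPM (counts scaled to the size of the library) in every group. Their sum fell with acidity in IL-2, from 10039 to 12807 CPM at pH 7.4 + IL-2 to 3542 to 4988 CPM at pH 6.6 + IL-2. Mean granzyme B (Gzmb) alone was 7796 CPM at pH 7.4 + IL-2. At pH 6.6 + IL-2 it was below Cd8a, the highest marker there (mean 1046 CPM). Cd3d, Cd3e, Cd3g, Cd8a, Cd8b1 and Lck were at 211.5 CPM or more in every library. Without IL-2 the sum was 3457 to 3832 CPM at pH 7.4 and 2835 to 3280 CPM at pH 6.6. Ms4a1 and Pax5 (B cells) and Siglech (plasmacytoid dendritic cells) had 0 counts in all libraries, and Cd4 reached 2.48 CPM at most. Another B-cell marker, Cd79b, was found in all libraries at 1.02 to 5.91 CPM, with a mean of 4.44 CPM at 0 h and 1.26 CPM at pH 7.4. The dendritic-cell marker Flt3 reached 6.40 CPM, with a mean of 2.48 CPM at pH 7.4 and 0.284 CPM at pH 6.6 without IL-2. The summed macrophage and monocyte markers moved with pH, from 5.23 to 11.05 CPM at pH 7.4 + IL-2 to 16.2 to 31.001 CPM at pH 6.6 + IL-2. Nearly all of that sum was Cd68, while Lyz2, Csf1r and Adgre1 never passed 0.286 CPM. The natural killer markers moved the other way, from 43.0 to 45.8 CPM to 19.3 to 33.2 CPM, and were nearly all Klrb1c, with Ncr1 at 0.0694 CPM at most. Without IL-2, mean Cd68 was 14.1 CPM at pH 7.4 and 25.9 CPM at pH 6.6, and mean Klrb1c was 31.8 and 10.3 CPM, after 89.0 CPM at 0 h. The part of these marker levels in the results below was not tested.

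Promoter sequence was the first property that the choice of genes had not used. RefSeq promoter windows (250 bases before to 50 bases after a start, GRCm38.p6) were at hand for 7 of the 10 genes, and 5 of the 7 held a match to the 10-base kB consensus on either strand. Among all 27025 genes with a window, 9.55% held a match. Nfkb1, Relb and Nfkbiz have no entry in the table used here. The matches are printed because these are letters that NF-kB dimers are known to prefer. Each is written 5′ to 3′ along the gene's strand, with the match in capitals, and overlapping matches are merged. A match is a description of the letters and not a bound site.

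Tnfaip3, chr10:19015517-19015544, minus strand: actcacgcgGGGACACCCCggggcggga
Tnfaip3, chr10:19015404-19015431, minus strand: atttccatcGGAAATCCCCctgttggca
Nfkbia, chr12:55492658-55492685, minus strand: gactggcttGGAAATTCCCcgcgcctga
Rel, chr11:23771042-23771070, minus strand: gtaagcagcGGGAAATCCCCccccctccc
Nfkbie, chr17:45555585-45555612, plus strand: cagcaaacaGGGGGATTCCggaggggcg
Nfkb2, chr19:46304689-46304717, plus strand: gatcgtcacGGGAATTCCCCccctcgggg
Nfkb2, chr19:46304717-46304744, plus strand: gggccgaaaGGGGCTTTCCcggctggag
Nfkb2, chr19:46305450-46305477, plus strand: ccgacggcaGGAATGTCCCcacaaaagc
Nfkb2, chr19:46305696-46305723, plus strand: ggtattttcGGGACTTTCCtaagcagca

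Nfkb2 held matches in all 3 of its windows and Tnfaip3 in 1 of 2. The windows of Rela and Nfkbib held none. The STAT5 element GAS, searched as TTCNNNGAA on both strands, occurred in 8.298% of all windows and, among these genes, in 1 window of Nfkb2.

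The first comparison asked how acidity changed these genes while IL-2 was present. Between pH 6.6 + IL-2 and pH 7.4 + IL-2, 8 of the 10 genes were higher, 1 was lower and 1 did not pass the test (adjusted p under 0.05, edgeR quasi-likelihood test). Of all 13819 genes tested, 76.3% were called (35.4% higher and 40.9% lower), so a call alone was common in this comparison. With RLE scaling, raw library totals or DESeq2, 9 of the 10 were higher and 0 lower. The 10 genes had a median log2 fold change of 1.29, beside -0.07 for all genes tested. This is a description, since the genes were chosen with earlier results of these data known. Tnfaip3 and Nfkbia, which are known as feedback inhibitors, had the largest rises of the 10, followed by Relb, Nfkbiz, Rel, Nfkbie, Nfkb2 and Rela. In bulk RNA, a change in the share of cells that express a gene and a change in RNA per cell cannot be told apart.

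Tnfaip3 encodes A20, which removes activating ubiquitin chains from signalling complexes upstream of IKK. Its level was 45.1, 41.0, 36.2, 48.1 and 52.4 CPM in replicates 1 to 5 at pH 7.4 + IL-2, and 533, 792, 677, 538 and 594 CPM at pH 6.6 + IL-2. Every library at pH 6.6 + IL-2 was thus above every library at pH 7.4 + IL-2. The fitted log2 fold change was 3.83 (SE 0.16, adjusted p = 8.07e-20), a 14.2-fold rise seen in 5 of 5 pairs. At pH 7 + IL-2 the 5 libraries lay between 60.2 and 80.1 CPM, which was also clear of pH 7.4 + IL-2 (log2 fold change 0.65, SE 0.15, adjusted p = 0.00195).

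Nfkbia encodes I-kappa-B alpha, the main inhibitor of Rela-containing dimers. At pH 7.4 + IL-2 its level was 26.9, 17.05, 18.6, 20.8 and 18.9 CPM in replicates 1 to 5. At pH 6.6 + IL-2 it was 100, 266, 199, 192 and 168 CPM, so the groups did not overlap, and replicate 1 had the smallest difference of the 5. The log2 fold change was 3.15 (SE 0.24, adjusted p = 9.04e-13), or 8.88-fold, with differences of 1.89 to 3.96 within pairs. At pH 7 + IL-2, Nfkbia was higher than at pH 7.4 + IL-2 in 5 of 5 pairs, but the groups overlapped and the difference did not pass the test (0.55, SE 0.23, adjusted p = 0.0932).

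Among the subunits, Relb, the partner of the p52 protein in the non-canonical arm, changed most. Its level was 24.7, 19.4, 19.01, 22.6 and 23.1 CPM at pH 7.4 + IL-2 and 66.8, 105, 84.9, 72.9 and 70.7 CPM at pH 6.6 + IL-2. The log2 fold change was 1.87 (SE 0.12, adjusted p = 4.21e-15). Relb also rose at pH 7 + IL-2, where the libraries lay between 28.02 and 31.1 CPM and all were above pH 7.4 + IL-2 (0.43, SE 0.12, adjusted p = 0.0128). This call was lost without replicate 2 (adjusted p = 0.0575) and without replicate 3 (adjusted p = 0.117), and the smallest adjusted p of any alternative was 0.000748. Rel, the c-Rel subunit that T cells use for cytokine genes, went from 39.1 ± 2.87 CPM to 111 ± 24.1 CPM (SD, n = 5) at pH 6.6 + IL-2, a log2 fold change of 1.501 (SE 0.12, adjusted p = 2.17e-13) with no overlap. At pH 7 + IL-2, Rel was 43.5 ± 2.83 CPM and did not pass the test (adjusted p = 0.349).

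Nfkb2, the p100 precursor of p52, went from 73.4 ± 7.07 CPM to 116 ± 22.2 CPM (SD, n = 5), a log2 fold change of 0.64 (SE 0.11, adjusted p = 3.91e-06) in 5 of 5 pairs, although the lowest library at pH 6.6 + IL-2, replicate 1 at 83.5 CPM, was below the highest at pH 7.4 + IL-2. Rela (p65), the main transactivating subunit, went from 108 ± 7.99 CPM to 145 ± 14.8 CPM (SD, n = 5) without overlap (0.42, SE 0.09, adjusted p = 6.45e-05). Nfkb1, the p105 precursor of p50, differed little: it was 410 ± 35.1 CPM and 436 ± 26.6 CPM (SD, n = 5). It was higher in 5 of 5 pairs but by only 0.09 on the log2 scale (SE 0.05, adjusted p = 0.128), and 7 of 12 alternatives called it higher. Among the subunits, Relb and Rel thus had the larger changes and Nfkb2, Rela and Nfkb1 the smaller ones.

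Nfkbiz, an atypical nuclear I-kappa-B protein that assists transcription of secondary response genes, was 30.9, 19.7, 20.9, 32.8 and 34.5 CPM at pH 7.4 + IL-2 and 56.5, 82.1, 71.5, 112 and 126 CPM at pH 6.6 + IL-2. The groups did not overlap, and the log2 fold change was 1.67 (SE 0.20, adjusted p = 5.5e-09). Nfkbie encodes I-kappa-B epsilon, an inhibitor with slower feedback than I-kappa-B alpha. It was 20.8, 15.8, 15.2, 14.98 and 16.5 CPM at pH 7.4 + IL-2 and 32.1, 34.98, 32.6, 39.6 and 35.8 CPM at pH 6.6 + IL-2 (1.08, SE 0.10, adjusted p = 1.3e-11). Replicate 1 stood apart from the other 4 at pH 7.4 + IL-2, and without it the log2 fold change was 1.26 (adjusted p = 2.82e-12). At pH 7 + IL-2 it was already 26.4 ± 3.52 CPM (SD, n = 5), above every library at pH 7.4 + IL-2 (0.67, SE 0.10, adjusted p = 1.56e-05). In all, 3 of the 10 genes (Nfkbie, Tnfaip3, Relb) were higher and 0 lower at pH 7 + IL-2, where 19% of all genes were called (9.15% higher and 9.83% lower).

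Nfkbib, which encodes I-kappa-B beta, was the only one of the 10 called lower at pH 6.6 + IL-2, at 22.3 ± 2.46 CPM against 27.4 ± 1.89 CPM (SD, n = 5). The difference was -0.30 on the log2 scale (SE 0.12, adjusted p = 0.0213) and negative in 5 of 5 pairs, with overlapping groups. It lost its call with RLE scaling (adjusted p = 0.0577), with DESeq2 (adjusted p = 0.0571), with raw library totals (adjusted p = 0.0951) and without replicate 1, 2 or 3 (adjusted p = 0.132, 0.102 and 0.0885). Neighbouring genes that run antisense overlap 16.4% of Nfkbib exon sequence (Ccer2, Sirt2) and 18.1% of Nfkb2 exon sequence, and whether the counting used strand is not given in the sources used here, so reads from those neighbours cannot be told apart.

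**Figure D1:**
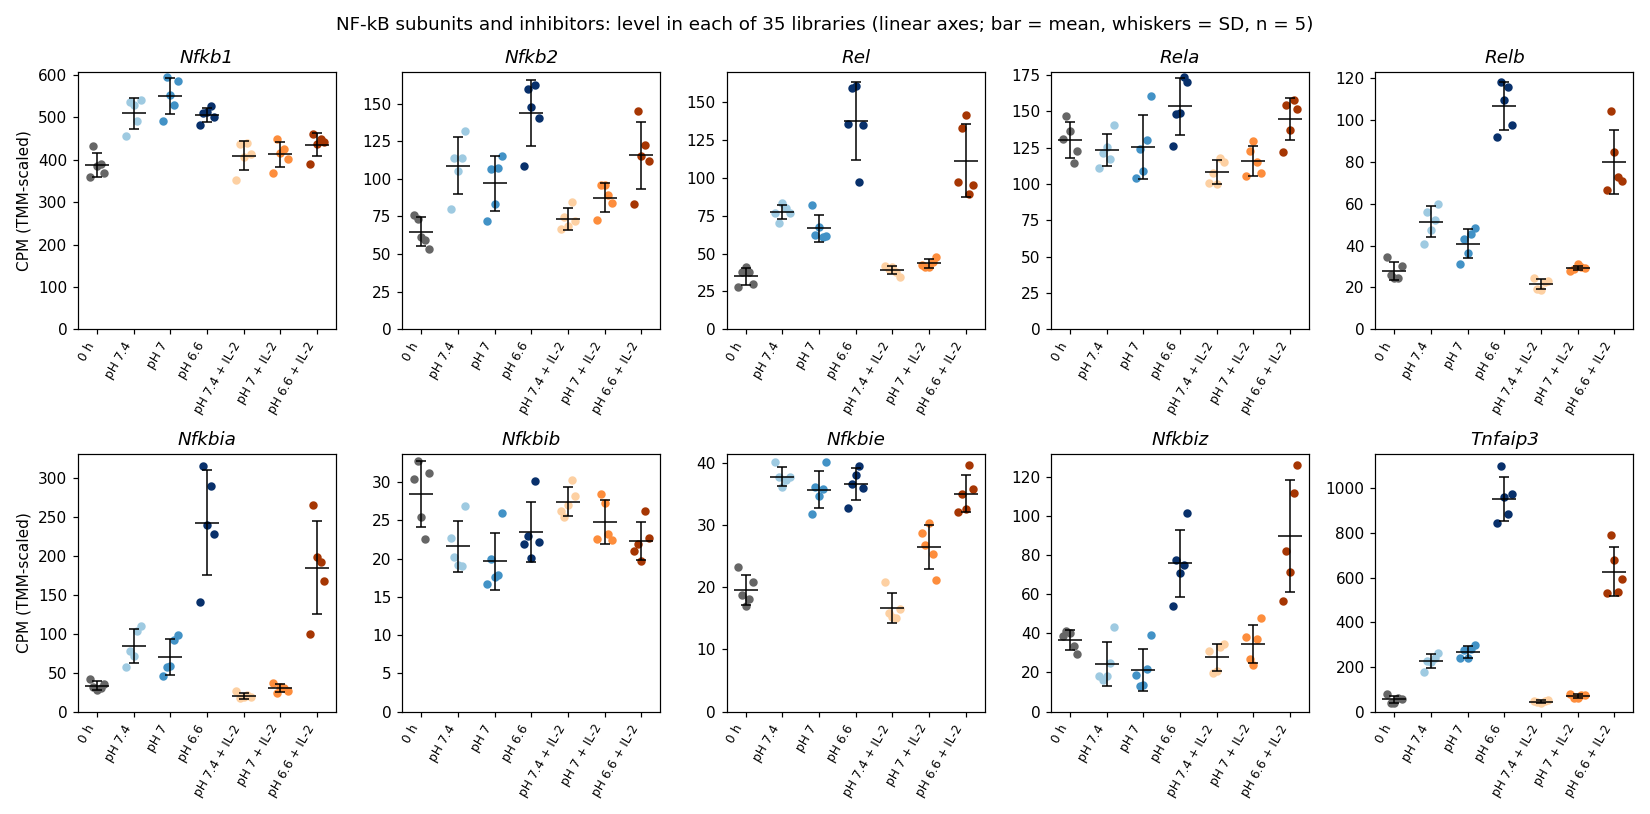
Level in CPM (linear axes from 0) of each of the 10 genes in each of the 35 libraries by group, with points for libraries, a bar for the mean and whiskers for the SD (n = 5). Tnfaip3, Nfkbia, Relb, Rel and Nfkbiz are high in both pH 6.6 groups, Nfkbie is low at 0 h and at pH 7.4 + IL-2, and Nfkb1, Rela and Nfkbib vary little, by at most 1.45-fold between group means.

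Without IL-2, pH 6.6 raised 7 of the 10 genes relative to pH 7.4 and lowered 0, against 67% of all genes called (31.6% higher and 35.4% lower). With raw library totals, 5 were higher and 1, Nfkb1, was lower (-0.16, adjusted p = 0.0165). Tnfaip3 was 177, 227, 220, 242 and 260 CPM at pH 7.4 and 844, 1101, 960, 885 and 974 CPM at pH 6.6 (log2 fold change 2.09, SE 0.15, adjusted p = 1.17e-13). Nfkbia was 57.4, 77.7, 71.6, 104 and 110 CPM at pH 7.4 and 141, 316, 240, 290 and 228 CPM at pH 6.6 (1.54, SE 0.22, adjusted p = 7.16e-07). The groups did not overlap for either feedback inhibitor.

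Nfkbiz rose without IL-2 too, from 24.2 ± 11.2 CPM to 75.6 ± 16.98 CPM (SD, n = 5; log2 fold change 1.71, SE 0.20, adjusted p = 8.32e-09). Relb rose by 1.06 (SE 0.12, adjusted p = 2.86e-09) and Rel by 0.82 (SE 0.11, adjusted p = 1.88e-07) on the log2 scale, both without overlap. Nfkb2 rose by 0.40 (SE 0.11, adjusted p = 0.00176) and Rela by 0.31 (SE 0.09, adjusted p = 0.00207), both with overlap. Both of these smaller calls were lost when raw library totals replaced the scaling (adjusted p = 0.0511 and 0.128).

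For Nfkbie no difference was called without IL-2, where it was 37.8 ± 1.47 CPM at pH 7.4 and 36.6 ± 2.51 CPM at pH 6.6 (SD, n = 5; -0.05, SE 0.10, adjusted p = 0.692). Nfkb1 (-0.01, adjusted p = 0.9) and Nfkbib (0.12, adjusted p = 0.371) did not pass the test either. Nfkbib was 30.2 CPM in replicate 4 at pH 6.6, above the other 4, and without that replicate its estimate was -0.02 (adjusted p = 0.859).

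The milder step to pH 7 without IL-2 gave 0 calls among the 10 genes, beside 1.68% of all genes (1.36% higher and 0.318% lower). At an unadjusted p under 0.05, 1 was higher (Nfkb1, 0.11, SE 0.05) and 1 lower (Relb, -0.33, SE 0.12). The share of all genes at that threshold is not given here, so this count cannot be set against it. DESeq2 also called 0 of the 10 genes at an adjusted p under 0.05. A fit of only the 2 groups compared, with its own estimate of the spread, called 5 of the 10 genes, of which 4 were lower, and it called 7.32% of the 12874 genes it tested (601 higher and 341 lower). At pH 7 the estimate for Relb had opposite signs with IL-2 (0.43) and without it (-0.33). The difference between these responses was tested with an interaction of pH 7 and IL-2, a contrast added after the data had been seen, which called 2 of the 10 genes higher and 0 lower against 4.79% of all genes (2.19% higher and 2.6% lower). These were Relb (0.76, SE 0.17, adjusted p = 0.00855) and Nfkbie (0.75, SE 0.14, adjusted p = 0.00175). The call for Relb was lost without replicate 2 (adjusted p = 0.0649) and without replicate 3 (adjusted p = 0.105), and without replicate 1 the count was 4.

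**Figure D2:**
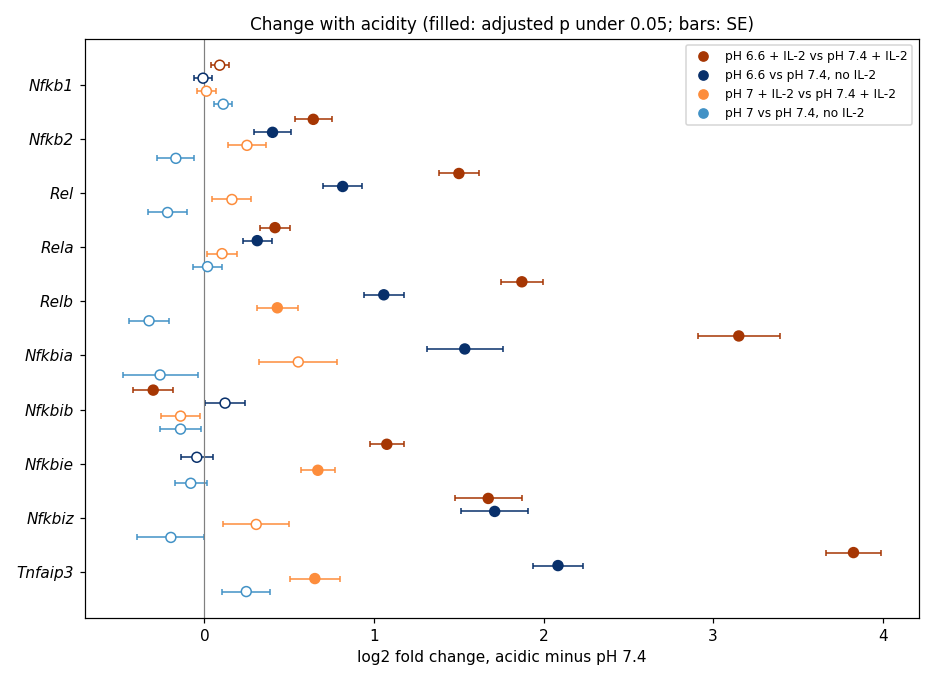
Fitted log2 fold change (acidic minus pH 7.4) with its SE for each of the 10 genes, for pH 6.6 and pH 7, with and without IL-2; filled points passed an adjusted p of 0.05. Tnfaip3 reaches 3.83 and Nfkbia 3.15 at pH 6.6 + IL-2, and no point for pH 7 without IL-2 is filled.

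The second question was what IL-2 did at each pH. At pH 7.4, 8 of the 10 genes were lower with IL-2 than without it and 1 was higher, against 80.4% of all genes called (39.3% higher and 41.1% lower). With raw library totals, 8 were lower and 0 higher. The libraries at pH 7.4 serve both as the controls of this comparison and in the acidity comparisons, so the values below are given side by side and were not correlated. Tnfaip3 was lower by 5.07-fold with IL-2 (log2 fold change -2.34, SE 0.15, adjusted p = 1.41e-15), from 225 ± 30.998 CPM to 44.6 ± 6.25 CPM (SD, n = 5). Nfkbia was lower by 4.01-fold (-2.003, SE 0.23, adjusted p = 5.76e-09), from 84.1 ± 22.1 CPM to 20.4 ± 3.84 CPM. Neither pair of groups overlapped.

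Relb (-1.23), Nfkbie (-1.18) and Rel (-0.99) were also lower with IL-2 at pH 7.4, with adjusted p of 6.25e-11, 8.83e-13 and 2.18e-09, and none of them overlapped. Nfkb2 was lower by 0.56 on the log2 scale (log2 fold change -0.56, SE 0.11, adjusted p = 2.76e-05) and Nfkb1 by a smaller margin without overlap (-0.32, SE 0.05, adjusted p = 3.04e-06). The call for Rela was close to the threshold (-0.19, SE 0.09, adjusted p = 0.0474) and was lost in 4 of 12 alternatives. Nfkbib was higher with IL-2 (0.35, SE 0.12, adjusted p = 0.00766), a call lost with raw library totals and without replicate 2 (adjusted p = 0.155 and 0.0543), and Nfkbiz was not called (0.25, SE 0.20, adjusted p = 0.234).

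At pH 7, 6 of the 10 genes were lower with IL-2 and 2 were higher, against 77.2% of all genes (37.6% higher and 39.5% lower). With raw library totals, 8 were lower and 1 higher. The largest difference was that of Tnfaip3 (-1.94, SE 0.15, adjusted p = 1.47e-13), followed by Nfkbia (-1.19, SE 0.23), Rel (-0.61, SE 0.11), Relb (-0.48, SE 0.12), Nfkbie (-0.43, SE 0.10) and Nfkb1 (-0.42, SE 0.05). Nfkbiz was higher with IL-2 at this pH (0.76, SE 0.20, adjusted p = 0.000926), and so was Nfkbib (0.35, SE 0.12, adjusted p = 0.0082), a call lost in 4 of 12 alternatives, among them those without replicate 1, 2 or 3 (adjusted p = 0.0865, 0.117 and 0.0534).

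At pH 6.6, 23.7% of all genes were called (13.2% higher and 10.6% lower), and 5 of the 10 were lower with it and 0 higher. Tnfaip3 was lower by 0.60 on the log2 scale (log2 fold change -0.60, SE 0.14, adjusted p = 0.00203), without overlap, at 627 ± 109 CPM against 953 ± 98.4 CPM (SD, n = 5). Relb (-0.42, adjusted p = 0.00854), Nfkb2 (-0.32, adjusted p = 0.0315), Rel (-0.31, adjusted p = 0.0451) and Nfkb1 (-0.22, adjusted p = 0.00294) were also lower. The calls for Rel and Nfkb2 were lost in 9 and 5 of 12 alternatives, and 3 of the 10 genes were called without replicate 1, without replicate 2, without replicate 3 or without replicate 4. Nfkb1 was lost in 3 of 12 alternatives, among them that without replicate 1. Relb was lost in 1 of 12, that without replicate 4 (adjusted p = 0.0864). Nfkbia was lower in 5 of 5 pairs but not called (-0.39, SE 0.22, adjusted p = 0.207).

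**Figure D3:**
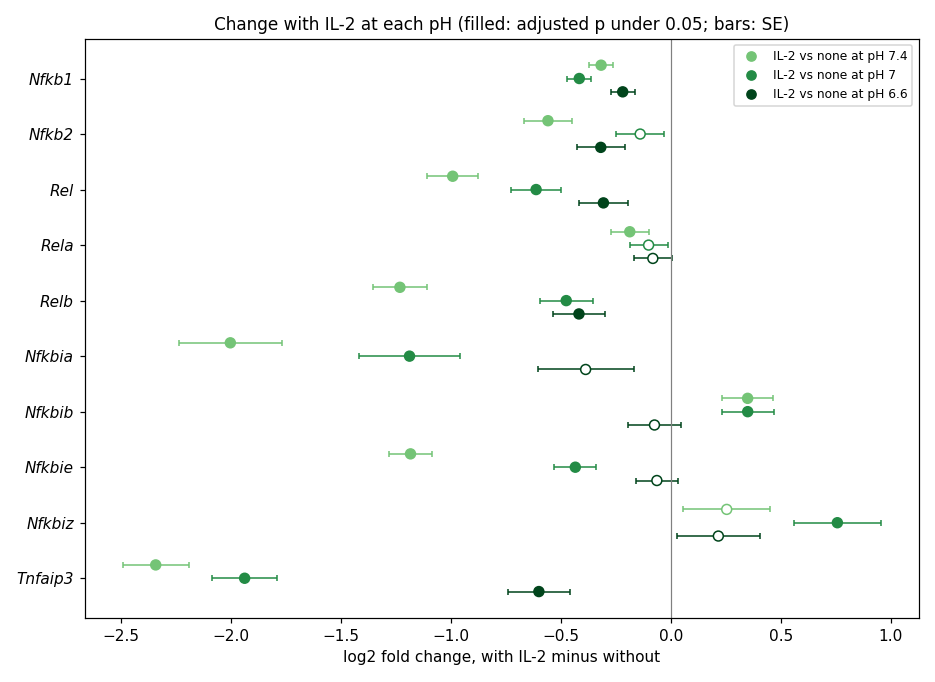
Fitted log2 fold change (with IL-2 minus without) with its SE for each of the 10 genes at pH 7.4, pH 7 and pH 6.6; filled points passed an adjusted p of 0.05. The points for Tnfaip3 move from -2.34 at pH 7.4 to -0.60 at pH 6.6, and those for Nfkbib and Nfkbiz at pH 7.4 and pH 7 lie above 0.

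Whether the acidity response differed with IL-2 was tested by the interaction of pH 6.6 and IL-2, in which a positive value means a larger rise with IL-2. Of the 10 genes, 5 were higher and 1 was lower, while 67% of all genes were called (34.3% higher and 32.8% lower). With raw library totals, 8 were higher and 0 lower, but the median of all genes also moved, from 0.04 to 0.27. Tnfaip3 (1.74, SE 0.20, adjusted p = 5.42e-09), Nfkbia (1.62, SE 0.32, adjusted p = 5.43e-05), Nfkbie (1.12, SE 0.14, adjusted p = 1.33e-08), Relb (0.81, SE 0.17, adjusted p = 8.59e-05) and Rel (0.69, SE 0.16, adjusted p = 0.000381) were positive in 5 of 5 replicates. The same contrast is also the IL-2 difference at pH 6.6 minus that at pH 7.4, so what follows restates it. For all 5, the mean levels with and without IL-2 were closer to each other, as a ratio, in the acidic cultures than in those at pH 7.4. Nfkbie had 35.02 and 36.6 CPM at pH 6.6 with and without IL-2 and 16.7 and 37.8 CPM at pH 7.4. Nfkbib was negative (-0.42, SE 0.17, adjusted p = 0.0258), a call lost in 6 of 12 alternatives, including each that left out replicate 1, 2, 3 or 4 (adjusted p = 0.099, 0.141, 0.0637 and 0.0898). For Nfkbiz the interaction was -0.04 (SE 0.27, adjusted p = 0.909).

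Cells at pH 6.6 with IL-2 were also set against cells at pH 7.4 without it, since both differ from pH 7.4 + IL-2. Of all genes, 64.4% were called (30.4% higher and 34.1% lower). Tnfaip3 (1.48, SE 0.14, adjusted p = 1.72e-10), Nfkbiz (1.93, SE 0.20, adjusted p = 9.3e-10), Nfkbia (1.15, SE 0.22, adjusted p = 5.48e-05), Relb (0.64, SE 0.12, adjusted p = 2.18e-05), Rel (0.51, SE 0.11, adjusted p = 0.000242) and Rela (0.23, SE 0.09, adjusted p = 0.0207) were higher in the acidic cells with IL-2. Nfkb1 was lower (-0.23, SE 0.05, adjusted p = 0.000494). Nfkb2, Nfkbib and Nfkbie did not pass the test, with estimates of 0.08, 0.05 and -0.11.

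The level at 0 h gave a further reference, the state of the expanded CTLs before the 24 h of culture. At pH 7.4 without IL-2, 7 of the 10 genes were higher than at 0 h and 2 were lower (75.2% of all genes called, 36.9% higher and 38.3% lower). Tnfaip3 was 78.9, 38.5, 37.3, 61.0 and 54.3 CPM at 0 h, and every library at pH 7.4 was above these (2.07, SE 0.15, adjusted p = 6.13e-14). Nfkbia (1.30, SE 0.23), Rel (1.16, SE 0.12), Nfkbie (0.95, SE 0.10), Relb (0.87, SE 0.12), Nfkb2 (0.72, SE 0.11) and Nfkb1 (0.40, SE 0.05) were higher as well. Nfkbib (-0.40, SE 0.12, adjusted p = 0.00279) and Nfkbiz (-0.73, SE 0.20, adjusted p = 0.00145) were lower. The call for Nfkbib was lost without replicate 2 (adjusted p = 0.0771), and that for Nfkbiz without the replicate block (adjusted p = 0.053).

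With IL-2 at pH 7.4, the same interval gave 0 rises and 5 falls among the 10 genes (59.9% of all genes called, 29% higher and 30.9% lower). Nfkbia was lower without overlap (-0.70, SE 0.23, adjusted p = 0.0101), and Nfkbiz (-0.47, adjusted p = 0.0369), Relb (-0.36, adjusted p = 0.0121), Rela (-0.27, adjusted p = 0.00739) and Nfkbie (-0.23, adjusted p = 0.0435) were lower with overlap. Tnfaip3 did not pass the test (-0.28, SE 0.15, adjusted p = 0.104). The number of falls was 1 without replicate 3 and 3 without replicate 2, and the call for Nfkbia was made in all 12 alternatives. Leaving out 1 replicate at a time, 7505 to 7987 of all genes were called.

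The order of the 7 groups was read from the mean levels, and each neighbouring pair in it was compared in the same fit. Among pairs compared only for this order, all-gene call shares against 0 h were 75.1% for pH 6.6, 68.5% for pH 6.6 + IL-2, 75.4% for pH 7 and 54.3% for pH 7 + IL-2. They were 66.6% for pH 6.6 and pH 7, 78.5% for pH 6.6 and pH 7 + IL-2, 64.7% for pH 6.6 + IL-2 and pH 7, 72.4% for pH 6.6 + IL-2 and pH 7 + IL-2, and 76.9% for pH 7 + IL-2 and pH 7.4. Tnfaip3 rose from pH 7.4 + IL-2 (44.6 CPM) through 0 h, pH 7 + IL-2, pH 7.4, pH 7 and pH 6.6 + IL-2 to pH 6.6 (953 CPM), a 21.4-fold span. Its lowest pair (adjusted p = 0.104) and the pair of pH 7.4 and pH 7 (adjusted p = 0.761) did not pass the test. In the latter, Tnfaip3 was higher at pH 7 in 5 of 5 replicate pairs. Nfkbia spanned 11.9-fold, from pH 7.4 + IL-2 to pH 6.6. It passed the test at the steps from 0 h to pH 7 (adjusted p = 0.00016) and from pH 7.4 to pH 6.6 + IL-2 (adjusted p = 5.48e-05). In the latter step the groups overlapped. The step from pH 6.6 + IL-2 to pH 6.6 did not pass the test (adjusted p = 0.207), although Nfkbia was lower with IL-2 in 5 of 5 replicate pairs. Relb spanned 4.90-fold and Nfkbiz 4.22-fold. For Nfkbiz only the step from 0 h to pH 6.6 separated neighbours (adjusted p = 3.53e-05). Groups further apart in its order did differ, such as pH 7 and 0 h (-0.93, adjusted p = 0.000113) and pH 7 + IL-2 and pH 7 (0.76, adjusted p = 0.000926). Rel spanned 3.94-fold, from 0 h to pH 6.6.

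Nfkbie spanned 2.27-fold, with its 4 highest groups (pH 6.6 + IL-2, pH 7, pH 6.6, pH 7.4) not separated from each other. Nfkb2 spanned 2.22-fold, with pH 6.6 + IL-2 and pH 6.6 the only neighbours that differed (adjusted p = 0.0315). Nfkb1 spanned 1.42-fold and separated neighbours only at the step from pH 6.6 + IL-2 to pH 6.6 (adjusted p = 0.00294), though pH 6.6 + IL-2 was also above 0 h (0.17, adjusted p = 0.00659). No neighbouring pair passed the test for Rela (1.42-fold) or Nfkbib (1.45-fold).

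Per kilobase of the principal transcript, a scale that allows levels of different genes to be compared, Nfkb1 was the most abundant subunit in every group. It made up 56.0% of the summed level of the 5 subunits at pH 7.4 + IL-2, Rela 22.4%, Nfkb2 13.1%, Relb 5.54% and Rel 2.94%. At pH 6.6 + IL-2 the shares were 42.8% for Nfkb1, 21.6% for Rela, 14.9% for Nfkb2, 14.6% for Relb and 6.04% for Rel. These shares depend on the length chosen, since with all annotated exon bases Nfkb1 fell to 35.4% and Rela rose to 36.7% at pH 7.4 + IL-2, whereas Relb remained at 5.83% there and rose to 14.3% at pH 6.6 + IL-2. Tnfaip3 was 10.1 CPM per kb at pH 7.4 + IL-2 and 142 CPM per kb at pH 6.6 + IL-2, above the 106 CPM per kb of Nfkb1 in the latter group.

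Across the 35 libraries, which share groups and replicates, Relb and Nfkbia had the closest pattern of the 45 pairs of genes (Pearson r of log2 CPM 0.98), followed by Relb with Tnfaip3 (0.96) and Nfkbia with Tnfaip3 (0.96). Nfkbib had a negative r with 7 of the other 9 genes, down to -0.55 with Rel. Over all tested genes whose log2 CPM averaged 3 or more, the 2 most alike were Mms19 and Vgll4 for Tnfaip3 (both 0.98), Relb and Ulk1 for Nfkbia (0.98 and 0.97), Nfkbia and Retreg2 for Relb (0.98 and 0.97), Gatad2b and Nufip2 for Rel (0.99 and 0.98) and Dtx4 and Rab37 for Nfkbie (0.95 and 0.94). Those of Nfkbiz were the immediate early genes Sik1 and Dusp1 (0.91 and 0.90). Those of Nfkb2 were Tmem184b and Klf10 (both 0.92), of Nfkb1 Vps35l and Csnk1e (0.94 and 0.90), of Rela Nr1h2 and Cdk2ap2 (0.92 and 0.90) and of Nfkbib Dohh and Ndufs7 (0.87 and 0.86). These values are descriptions over 35 libraries of 7 groups, and group differences contribute to all of them.

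**Figure D4:**
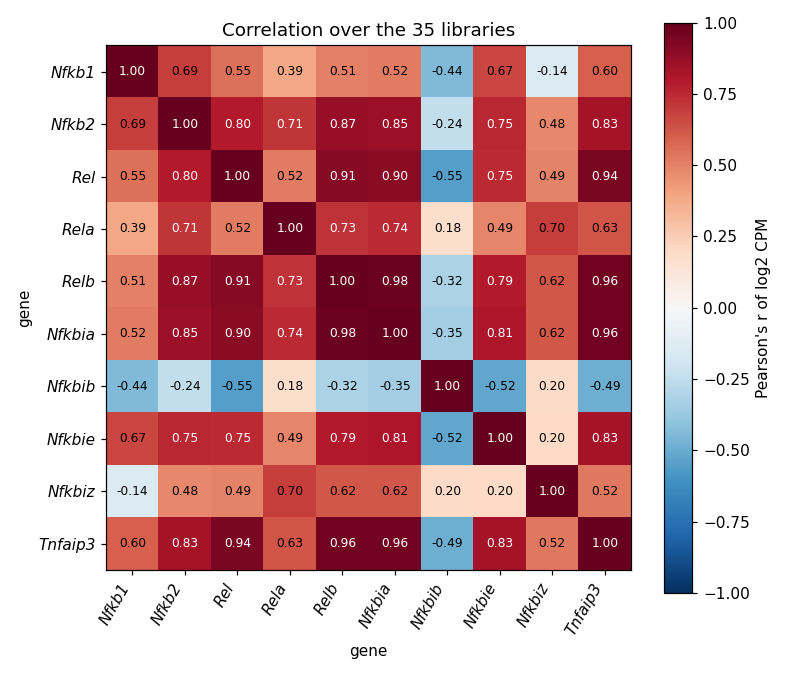
Pearson's r of log2 CPM between each pair of the 10 genes over the 35 libraries, as numbers and colours from -1 to 1. Tnfaip3, Nfkbia, Relb and Rel form a block with r from 0.90 to 0.98, and Nfkbib is negative with most of the others.

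The other genes of the pathway were counted by list, and each count stands beside 76.3% of all genes called with IL-2 and 67% without it. Of the 22 IKK complex genes and canonical adaptors, 11 were higher and 6 lower at pH 6.6 + IL-2 than at pH 7.4 + IL-2, with a median log2 fold change of 0.14. The largest rises were those of Irak2, an adaptor kinase of Toll-like and IL-1 family receptors (2.29, SE 0.09), and Malt1, the paracaspase of the T-cell receptor to IKK complex (1.82, SE 0.11). The largest falls were those of Tradd (-0.86, SE 0.12) and Ripk1 (-0.57, SE 0.09), which act at TNF receptors. The 22 divided into 4 higher and 8 lower at pH 6.6 without IL-2, with a median log2 fold change of -0.07. Of the 11 called both with and without IL-2, 3 (Ikbkb, Ikbkg, Irak1) had opposite directions.

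Of the 5 non-canonical genes, 4 were higher and 0 lower at pH 6.6 + IL-2, led by Birc2 (cIAP1, 2.40, SE 0.10) and Map3k14 (NIK, 1.12, SE 0.10). Birc2 restrains NIK by promoting its degradation, so the genes of this list do not all act in the same direction. Without IL-2, all 5 were higher at pH 6.6. Of the 15 other I-kappa-B proteins and brakes, 9 were higher and 4 lower with IL-2. Tnip1, which cooperates with A20 (1.49, SE 0.09), and Zc3h12a (regnase-1, an RNase that degrades inflammatory mRNAs, 1.30, SE 0.17) rose most, and Commd1 (-1.68, SE 0.14) and Nfkbid (-0.50, SE 0.12) fell most. The 15 divided into 6 higher and 2 lower at pH 6.6 without IL-2. Of the 8 called both with and without IL-2, 1 (Nkiras1) had opposite directions.

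Of the 18 tested receptors and ligands, 10 were higher and 7 lower at pH 6.6 + IL-2. Among those whose log2 CPM averaged 3 or more, Il18r1 (1.30, SE 0.09) and Cd27 (1.16, SE 0.11) rose most, while Lta, which encodes lymphotoxin alpha (-2.55, SE 0.12), and Tnfrsf9, which encodes 4-1BB (-1.64, SE 0.14), fell most. Tnfrsf25 (2.68, SE 0.47) and Tnfrsf4 (OX40, 1.60, SE 0.12), which are below that level, rose by more. The 18 divided into 7 higher and 7 lower at pH 6.6 without IL-2. Of the 14 called both with and without IL-2, 6 (Tnfrsf9, Tnfrsf14, Cd27, Il18rap, Il1rl1, Ltb) had opposite directions. Cd27 fell without IL-2 (-0.60, SE 0.10) and Tnfrsf9 rose (0.84, SE 0.15). Of the 26 tested target genes, 10 were higher and 9 lower at pH 6.6 + IL-2, with a median log2 fold change of 0.10 beside 1.29 for the 10 genes described here. With the same minimum, Gadd45b (2.84, SE 0.20) and the chemokine gene Ccl5 (2.11, SE 0.12) rose most, and Bcl2l1, which encodes the survival protein Bcl-xL (-0.92, SE 0.08), and Irf4 (-0.72, SE 0.12) fell most. Below it, Cd83 rose by more (5.29, SE 0.38), and Ifng (-2.61, SE 0.27), Ccl4 (-1.96, SE 0.26), Ccl3 (-1.86, SE 0.39) and Cxcl10 (-0.94, SE 0.39, in 4 of 5 pairs) fell by more. The 26 divided into 12 higher and 10 lower at pH 6.6 without IL-2. Of the 16 target genes called at pH 6.6 both with and without IL-2, 13 had the same direction and 3 (Bcl2l1, Ccl5, Sod2) opposite directions. Without IL-2, Bcl2l1 rose by 1.37 (SE 0.09), Ccl5 fell (log2 fold change -1.26, SE 0.11) and Sod2 rose by 0.32 (SE 0.07), and the interaction was -2.29 (SE 0.12), 3.37 (SE 0.16) and -0.52 (SE 0.10), with adjusted p of 3.34e-17, 8.39e-18 and 5.41e-05.

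**Figure D5:**
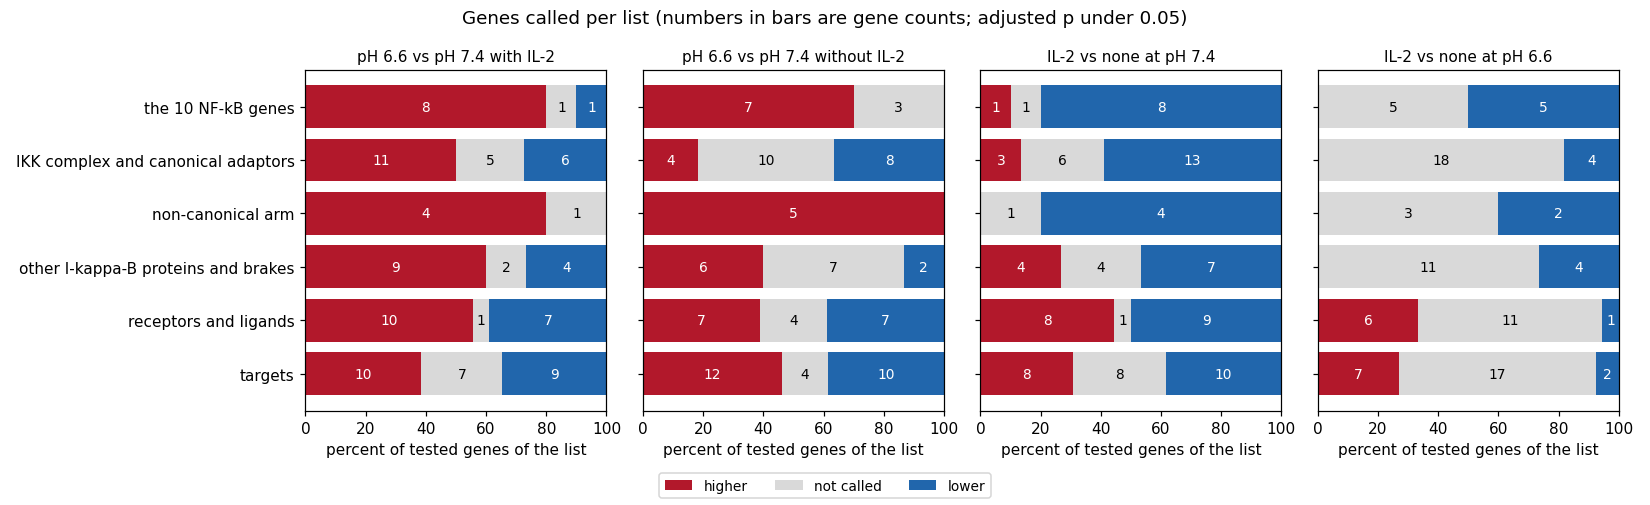
Share of the tested genes of each list that were called higher, not called or called lower in 4 comparisons, with gene counts in the bars. At pH 6.6 with IL-2 against pH 7.4 with IL-2, 8 of the 10 NF-kB genes are higher and 1 is lower, and the 26 target genes divide into 10 higher and 9 lower.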

How the data were processed

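RNA-seq was analysed in 35 libraries of 7 groups. The authors made TruSeq stranded mRNA libraries, read from a single end, and they deposited whole-number counts per gene with no normalization. The submitters' processing notes name cutadapt 1.8, STAR 2.5.2b, HTSeq 0.6.1 and GRCm38. Reads aligned to more than one place (median 37.1% of the reads in the tables) were not counted, and the 5 closing rows that name no gene, which also hold reads outside genes (median 7.42%) and ambiguous reads (median 0.922%), were left out. Genes were named and placed with GENCODE M21.

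Counts were TMM-scaled and fitted with the robust quasi-likelihood test of edgeR 4.0.16 in R 4.3.3, over all 35 libraries with the replicate number as a block, for the 13819 genes kept by filterByExpr (minimum count 10). P-values were adjusted by Benjamini-Hochberg over these genes, at 0.05. Fold changes are contrasts of this fit, and levels are TMM-scaled CPM. The labels number the biological replicates 1 to 5 in every group without stating that a number marks 1 mouse, and in these data 95 of 105 same-numbered pairs of libraries deviated together from their group means (r over 0.1), against 43 of 420 differently numbered pairs. No 2 libraries of a group agreed within sampling noise. The procedure was tested on simulated data for pH 6.6 against pH 7.4 with IL-2. It called 85 of 95 genes given a log2 fold change of 1 in size, 56 of 98 given 0.5, and 2 of 13229 given 0. Alternatives were RLE scaling, DESeq2 1.42.0, a looser and a stricter count filter, no block, only the groups compared, leaving out each replicate and, added after seeing the data, raw library totals and the interaction of pH 7 and IL-2. Per-library marker lists were summed CPM.

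The 10 genes and the gene lists were chosen with earlier results of these data known, so their counts are descriptions. In each list, the text names the 2 largest rises and falls at pH 6.6 + IL-2 among called genes that average 3 or more in log2 CPM and keep 1 sign in 5 of 5 pairs. Promoter windows are those of RefSeq (GRCm38.p6).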

Additional observations from a re-analysis of the deposited data

Results flagged for a closer look

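For 6 of the 10 genes, the change between pH 7.4 and pH 6.6 differed with and without IL-2 by the interaction test of edgeR (adjusted p under 0.05), beside 67% of all genes called in that test, a share close to theirs. The differences on the log2 scale were 1.74 for Tnfaip3, 1.62 for Nfkbia, 1.12 for Nfkbie, 0.81 for Relb, 0.69 for Rel and -0.42 for Nfkbib. The same test for pH 7, added after the data had been seen, gave 0.76 for Relb and 0.75 for Nfkbie, beside 4.79% of all genes called. All of these were of the same sign in 5 of 5 replicates.

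The 70 groups of 5 values (10 genes in 7 groups) were screened for a library far from the others. By Dixon's critical value of 0.71 on the CPM scale, 2 libraries stood apart, Nfkbie in replicate 1 at pH 7.4 + IL-2 (20.8 CPM, with 16.5 CPM the nearest) and Nfkbib in replicate 4 at pH 6.6 (30.2 CPM, with 22.97 CPM the nearest). Chance alone gives such a value in about 1 of 20 groups, and on the log2 scale the number was 0. Without replicate 1, IL-2 at pH 7.4 changed Nfkbie by -1.31 on the log2 scale (-1.18 with it).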

How the results depend on the processing

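Of 110 gene results (10 genes, 11 contrasts), 63 were called; 44 of these were called under all 12 alternatives, 19 lost their call under at least 1, and 25 uncalled results were called under at least 1. None of the called results changed sign. Raw library totals moved the median of all genes by over 0.1, to -0.20 for IL-2 at pH 7.4, -0.16 for IL-2 at pH 7, -0.19 for pH 6.6 without IL-2 and 0.27 for the interaction of pH 6.6 and IL-2; they kept the order of the 7 groups for 7 of the 10 genes. They also moved the split of all called genes, to 1659 higher and 866 lower at pH 7 with IL-2 (1264 and 1359 in the fit reported), 3212 and 6048 at pH 6.6 without IL-2 (4367 and 4891), 2254 and 769 for IL-2 at pH 6.6 (1819 and 1459), 5945 and 3518 for the interaction of pH 6.6 (4735 and 4526) and 375 and 242 for that of pH 7 (303 and 359). The causes were not tested.

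Without the replicate block, all genes called were 1660 at pH 7 with IL-2, 56 at pH 7 without it and 177 for the interaction of pH 7 and IL-2, against 2623, 232 and 662 with it, and of the 10 genes 3 instead of 5 were called for IL-2 at pH 6.6. With only the groups compared, all genes called were 4388, 942 and 1632 for the same 3 contrasts and 5369 for IL-2 at pH 6.6 (3278 in the fit reported). Of the 10 genes, 6 were called at pH 7 with IL-2, 5 at pH 7 without it, 6 for the interaction of pH 7 and 3 for pH 7.4 with IL-2 against 0 h. For pH 7.4 with IL-2 against 0 h, such a fit called 6650 of all genes (52.6%). The looser filter called 3 of the 10 for IL-2 at pH 6.6, 3 for pH 7.4 with IL-2 against 0 h and 326 of all genes for the interaction of pH 7. DESeq2 called 1016 there, and raw totals called 2 of the 10 for IL-2 at pH 6.6.

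Leaving out 1 replicate at a time, of the 10 genes 2 to 5 were called at pH 7 with IL-2, 3 to 4 for IL-2 at pH 6.6, 1 to 4 for the interaction of pH 7 and 1 to 6 for pH 7.4 with IL-2 against 0 h. All genes called were 1283 to 2425, 2119 to 2630 and 98 to 711 for the first 3 of these, and 35 to 332 at pH 7 without IL-2. For pH 7.4 with IL-2 against 0 h they were 7505 to 7987 (8282 in the fit reported). Replicates 2 and 3 gave the lowest counts at pH 7, and replicate 4 that for IL-2 at pH 6.6.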

Other observations

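Replicate 1 had the highest Nfkbia of its group at 0 h (42.2 CPM), pH 7.4 + IL-2 (26.9 CPM) and pH 7 + IL-2 (37.2 CPM), and the lowest at pH 7.4 (57.4 CPM), pH 7 (46.0 CPM), pH 6.6 (141 CPM) and pH 6.6 + IL-2 (100 CPM). The log2 fold change of Nfkbia at pH 6.6 with IL-2 was 3.53 without this replicate, beside 3.15 with it.

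Replicate 5 had the highest Nfkbiz of its group in all 6 groups cultured for 24 h, from 34.5 CPM at pH 7.4 + IL-2 to 126 CPM at pH 6.6 + IL-2, and the lowest at 0 h (29.2 CPM). The log2 fold change of Nfkbiz between pH 7.4 without IL-2 and 0 h was -1.02 without this replicate, beside -0.73 with it.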
